A study of Mus musculus with 25 samples.

Results

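The genes described here build and load MHC class I, the cell-surface molecule that shows fragments of a cell's own proteins to CD8 T cells and NK cells. They are 10 genes chosen by symbol: B2m, H2-K1, H2-D1, H2-Q2, H2-T23, Tap1, Tap2, Tapbp, Psmb8 and Psmb9. Of these, 9 had a probe set of their own on the array, out of 18194 genes measured, and all 9 were above the level that counts here as expressed (a mean log2 value over 3.27, the median of all probe sets).

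Male C57BL/6.NOD-Aec1Aec2 mice gave the RNA, which was taken from their salivary glands and hybridised to Affymetrix mouse genome-wide 3' expression arrays. The mice were aged 4, 8, 12, 16 or 20 weeks, with 5 mice at each age, 1 array per mouse and 25 arrays in all. All of them carry the Aec1 and Aec2 intervals of the autoimmune NOD mouse on the C57BL/6 background and are a model of Sjögren's syndrome, an autoimmune disease of the exocrine glands. Lobes of the submandibular, sublingual and parotid glands of a mouse went into 1 RNA, with the salivary lymph nodes removed, no animal was treated, and the unaffected C57BL/6J strain was not analysed here, so age and disease stage cannot be told apart.

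In the class I pathway, the proteasome cuts proteins into peptides, and its subunits Psmb8 and Psmb9 replace standard subunits in the immunoproteasome, the form made in immune cells and in cells exposed to interferon gamma. The transporter formed by Tap1 and Tap2 carries the peptides into the endoplasmic reticulum. There Tapbp (tapasin) holds the empty class I molecule beside the transporter until a peptide binds, and the loaded complex of a heavy chain and the light chain B2m leaves for the cell surface. H2-K1 and H2-D1 are the classical heavy chains, which vary between strains and are found on nearly all nucleated cells. H2-Q2 and H2-T23 are non-classical heavy chains, and the product of H2-T23, Qa-1, is read by a receptor of NK cells.

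The promoters of the classical heavy chains and B2m are known for elements for nuclear factor kappa B, interferon regulatory factors, CRE-binding factors and the CCAAT factor. Of the 10 genes, 9 matched a promoter window of RefSeq (GRCm38.p6, a C57BL/6J sequence), and Tap2 did not. The 200 bases before the start of 5 of them are printed, because their genes fall into the groups that the values below separate. All 5 are written on the gene's own strand.

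B2m (chr2:122147487-122147686, + strand): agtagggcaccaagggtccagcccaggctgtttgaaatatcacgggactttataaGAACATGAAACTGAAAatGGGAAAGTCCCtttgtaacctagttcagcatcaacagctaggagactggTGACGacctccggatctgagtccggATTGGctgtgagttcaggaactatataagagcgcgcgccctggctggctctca
H2-K1 (chr17:34000348-34000547, - strand): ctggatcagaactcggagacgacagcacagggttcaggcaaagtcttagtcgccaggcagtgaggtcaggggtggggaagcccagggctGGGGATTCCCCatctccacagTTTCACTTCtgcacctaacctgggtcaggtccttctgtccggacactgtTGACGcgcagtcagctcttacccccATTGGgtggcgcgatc
H2-D1 (chr17:35262894-35263093, + strand): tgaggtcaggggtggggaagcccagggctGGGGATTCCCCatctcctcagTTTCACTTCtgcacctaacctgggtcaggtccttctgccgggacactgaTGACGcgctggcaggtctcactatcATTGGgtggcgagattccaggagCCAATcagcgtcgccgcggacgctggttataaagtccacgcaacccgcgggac
H2-Q2 (chr17:35342107-35342306, + strand): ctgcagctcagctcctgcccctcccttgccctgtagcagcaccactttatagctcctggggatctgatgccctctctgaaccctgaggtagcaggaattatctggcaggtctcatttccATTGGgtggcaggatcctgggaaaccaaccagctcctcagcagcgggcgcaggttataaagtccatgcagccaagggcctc
Tap1 (chr17:34187356-34187555, + strand): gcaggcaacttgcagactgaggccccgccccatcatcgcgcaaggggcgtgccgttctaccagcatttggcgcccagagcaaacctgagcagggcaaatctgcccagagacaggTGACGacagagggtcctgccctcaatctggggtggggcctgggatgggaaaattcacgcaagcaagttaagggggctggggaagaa

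Capitals mark matches, on either strand, to 5 strings of letters that were chosen after the sequences had been seen. The search covered 250 bases before each start, and overlapping matches are run together in the capitals. The kappa B string, GGGA and CC with any 4 letters between them, matched in B2m, H2-K1 and H2-D1, against 17.6% of 32851 RefSeq windows of the same length. The interferon regulatory factor string, GAA and GAAA with any 2 letters between them, matched in H2-K1 and H2-D1 (6.31% of all windows), and the same with 3 letters between them in B2m and H2-T23 (6.76%). TGACG, the core of the CRE-like element, matched in B2m, H2-K1, H2-D1, Tap1 and Psmb9 (17.8%). ATTGG, the CCAAT element read on the other strand, matched in 8 of the 9 windows, all but that of Psmb8 (33.8%). In H2-Q2 and Tapbp it was the sole string of the 5 that matched, and in Psmb8 none of the 5 did. The windows of H2-K1 and H2-D1 aligned over 177 columns with 161 identical, and those of H2-D1 and H2-Q2 over 90 columns with 70 identical. Tap1 and Psmb9 start back to back, so that their 300-base windows overlap by 275 bases on opposite strands. Their TGACG matches are the same bases, and so are their ATTGG matches, so each of these sites is counted for both genes above. With Psmb8 and Tap2 they form a run of 4 neighbouring coding genes on chromosome 17, which holds 9 of the 10 genes. B2m lies on chromosome 2. A match is a run of letters and not evidence of a bound factor.

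The arrays were not equally good. That of mouse 3 at 20 weeks stood apart from the rest: its median correlation with the other arrays of its age was 0.887, and the difference between the 3' and 5' probe sets was 3.87 for Gapdh and 5.36 for beta-actin on the log2 scale, the largest of all 25 arrays and a sign of shortened RNA. The arrays of mouse 5 at 20 weeks and mouse 2 at 16 weeks had the next lowest correlations, 0.974 each. Markers of the gland were bright in these samples, with mean log2 values of 10.87 to 11.46 over the ages for the water channel Aqp5 of acinar cells and 9.53 to 10.24 for the epithelial adhesion molecule Epcam. The counts below are therefore also given without mouse 3 at 20 weeks.

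Against 4 weeks, H2-Q2 was higher at each later age, and the immunoproteasome genes were higher at 16 weeks. The chains B2m, H2-K1 and H2-D1 were called at 12 weeks, 16 weeks or both. Measured with limma over all 25 arrays and adjusted over all 18194 genes, 1 of the 9 genes rose at 8 weeks against 4 weeks, where 1.48% of all genes rose. At 12 weeks 3 rose (5.66% of all genes), at 16 weeks 5 (1.71%) and at 20 weeks 1 (1.14%). The gene that rose at each age was H2-Q2. B2m and H2-K1 joined it at 12 weeks, and B2m, H2-D1, Psmb8 and Psmb9 at 16 weeks. None of the 9 fell, where 0.780%, 1.36%, 1.68% and 1.52% of all genes fell at 8, 12, 16 and 20 weeks. The median log2 fold change of the 9 genes was 0.35 at 8, 0.81 at 12, 0.95 at 16 and 0.57 at 20 weeks against 4 weeks, where the medians over all genes were -0.03, -0.03, -0.02 and 0.04. All 5 mice lay above all 5 mice of 4 weeks for 3 of the 9 genes at 8 weeks (4.58% of all genes), 6 at 12 weeks (12.5%), 3 at 16 weeks (2.22%) and, at 20 weeks, for none (1.22%). The moderated F-test over the 5 ages called 1 of the 9, H2-Q2 (adjusted p = 0.00192), and 4.66% of all genes. Of the 11696 genes with an expressed probe set, to which all 9 belong, the F-test called 7.02%. Against 4 weeks, 2.29%, 8.63%, 2.65% and 1.76% of these expressed genes rose at 8, 12, 16 and 20 weeks. The medians of their log2 fold changes were 0.10, 0.14, 0.02 and 0.06.

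Leaving out mouse 3 at 20 weeks, the counts were 4 at 8 weeks, 6 at 12 weeks, 7 at 16 weeks and 4 at 20 weeks, all higher than at 4 weeks. The shares of all genes that rose were then 5.14%, 13.3%, 4.11% and 6.23%. At 8 and 20 weeks the 4 genes were the light chain B2m and the heavy chains H2-K1, H2-D1 and H2-Q2. At 12 weeks Tap2 and Tapbp were added, and at 16 weeks Tapbp, Psmb8 and Psmb9. Tap1 was called at no age in the fits with and without this array.

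**Figure D1:**
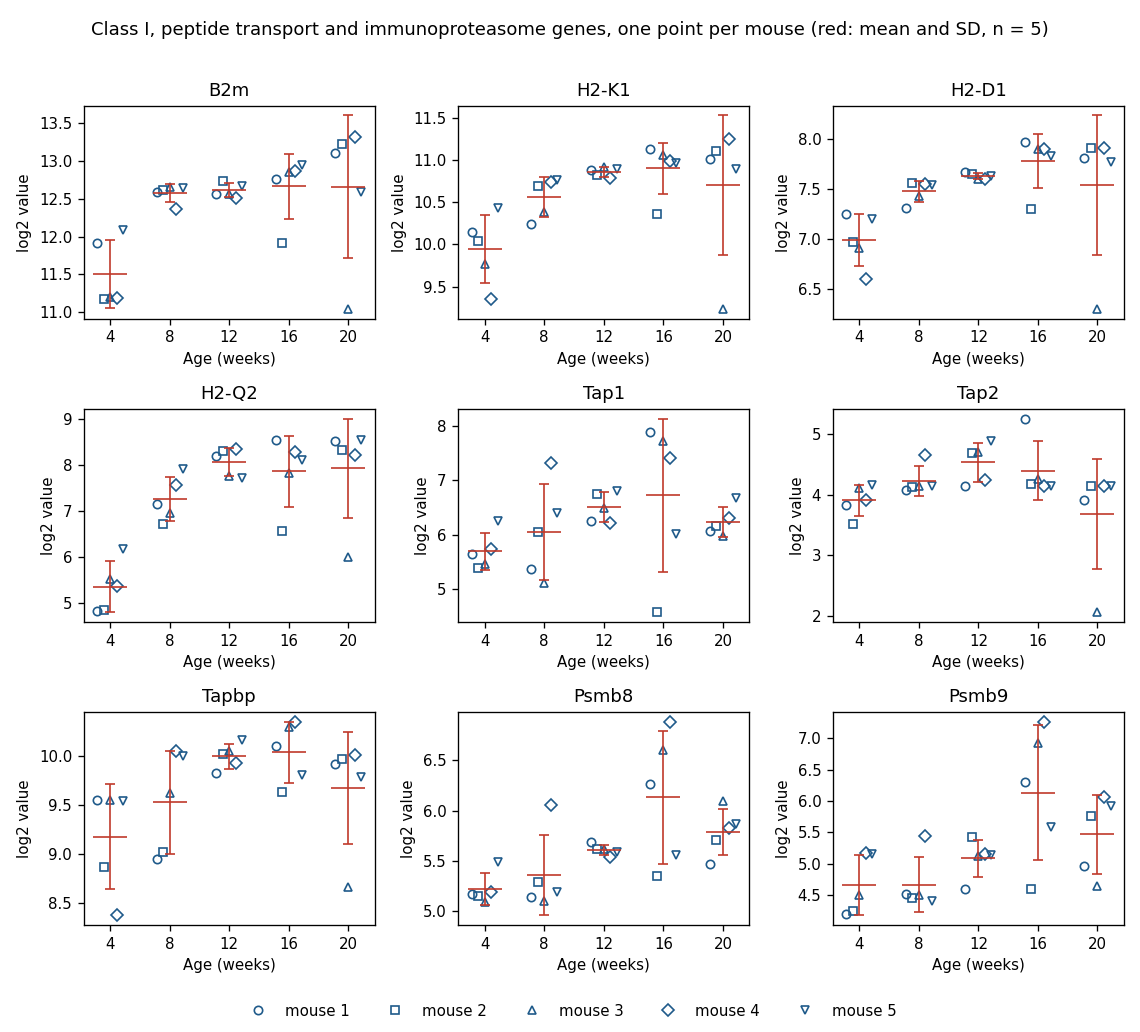
Log2 values of the 9 genes in each of the 25 mice by age in weeks, 1 symbol per mouse, with the mean and SD of 5 mice in red. H2-Q2 lay between 6.72 and 7.93 at 8 weeks, above every 4-week mouse, and mouse 3 at 20 weeks lay far below the other 4 mice of its age for B2m, H2-K1, H2-D1, H2-Q2, Tap2 and Tapbp.

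H2-Q2 changed the most of the 9 genes. The log2 values of mice 1 to 5 were 4.84, 4.86, 5.54, 5.37 and 6.17 at 4 weeks, and 7.15, 6.72, 6.96, 7.56 and 7.93 at 8 weeks. They were 8.20, 8.31, 7.77, 8.36 and 7.73 at 12 weeks, 8.56, 6.58, 7.83, 8.29 and 8.11 at 16 weeks, and 8.54, 8.34, 6.02, 8.24 and 8.55 at 20 weeks. Every mouse of 8, 12 and 16 weeks lay above every mouse of 4 weeks, and at 20 weeks 4 of 5 did, the exception being mouse 3. Against 4 weeks the log2 fold change was 1.91 ± 0.42 (SE, adjusted p = 0.0191) at 8 weeks, 2.72 (adjusted p = 0.000649) at 12 weeks, 2.52 (adjusted p = 0.00135) at 16 weeks and 2.58 (adjusted p = 0.00131) at 20 weeks, or 3.75-fold, 6.58-fold, 5.72-fold and 5.98-fold. Its linear term of age had a B-statistic of 4.33, the one value among the 9 genes above the threshold of 1.5 that the study's methods use, which 1.92% of all genes exceeded. The step between 8 and 12 weeks, 0.81 on the log2 scale, did not pass the test (adjusted p = 1.00), so the ages from 8 weeks on cannot be put in an order.

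The call of H2-Q2 rests on 1 probe set, 1418734_at. The H2-Q genes are close copies of one another, and whether this probe set also takes up transcripts of its neighbours was not tested. Another probe set is annotated to H2-Q2, H2-D1 and Gm38417 together, and it was left out of the gene values because its signal cannot be given to 1 gene. Its log2 fold changes lay within 0.27 of no change at every age, at a mean log2 value of 3.94, close to the level that counts as expressed.

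B2m, the light chain that every class I molecule needs, rose about 2-fold at 12 and 16 weeks. Its log2 values were 11.92, 11.17, 11.20, 11.19 and 12.08 at 4 weeks, 12.58, 12.61, 12.66, 12.36 and 12.64 at 8 weeks, and 12.56, 12.74, 12.56, 12.51 and 12.67 at 12 weeks. They were 12.76, 11.91, 12.85, 12.86 and 12.95 at 16 weeks and 13.10, 13.22, 11.04, 13.32 and 12.59 at 20 weeks. The 8- and 12-week mice all lay above the 4-week mice. Mouse 2 at 16 weeks lay within the 4-week range, mouse 3 at 20 weeks lay below it, and the other mice of these ages lay above it. The log2 fold change against 4 weeks was 1.06 at 8, 1.10 at 12, 1.16 at 16 and 1.14 at 20 weeks (SE 0.31 each). The adjusted p was 0.0361 at 12 weeks and 0.0423 at 16 weeks, and 0.0807 at 8 weeks and 0.0521 at 20 weeks missed the threshold. B2m passed at all 4 ages when mouse 3 at 20 weeks was left out, with a log2 fold change of 1.55 (adjusted p = 0.00013) at 20 weeks.

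The classical heavy chain H2-K1 had log2 values of 10.14, 10.04, 9.77, 9.35 and 10.43 at 4 weeks and of 10.24, 10.69, 10.39, 10.74 and 10.77 at 8 weeks, where 2 mice lay within the 4-week range. At 12 weeks the 5 mice lay close together, at 10.88, 10.82, 10.91, 10.78 and 10.89, all above the 4-week mice. The values were 11.13, 10.36, 11.06, 10.99 and 10.96 at 16 weeks and 11.01, 11.10, 9.24, 11.25 and 10.89 at 20 weeks. Mouse 2 at 16 weeks lay within the 4-week range, and mouse 3 at 20 weeks lay below it. The log2 fold change against 4 weeks was 0.91 ± 0.27 (SE, adjusted p = 0.0481) at 12 weeks. It was 0.62 at 8 weeks, 0.95 at 16 weeks and 0.75 at 20 weeks, with adjusted p of 0.299, 0.0611 and 0.188. H2-K1 passed at each of the 4 ages without that array, with an adjusted p of 0.0272 at 8 weeks.

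The other classical heavy chain, H2-D1, followed H2-K1 mouse by mouse. Its log2 values were 7.24, 6.97, 6.91, 6.60 and 7.20 at 4 weeks, 7.31, 7.56, 7.43, 7.55 and 7.54 at 8 weeks, and 7.67, 7.65, 7.60, 7.60 and 7.63 at 12 weeks. They were 7.97, 7.30, 7.90, 7.90 and 7.83 at 16 weeks and 7.81, 7.91, 6.30, 7.91 and 7.77 at 20 weeks. Every mouse of 8, 12 and 16 weeks was above every mouse of 4 weeks, and mouse 3 at 20 weeks was below all of them. At 16 weeks H2-D1 passed the test, being 0.79 ± 0.22 (SE) higher on the log2 scale (adjusted p = 0.0481), and it was 0.49, 0.64 and 0.55 at 8, 12 and 20 weeks (adjusted p = 0.305, 0.0819 and 0.244). The SD was 0.029 at 12 weeks and 0.26 at 4 weeks.

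The gene values of H2-K1 and H2-D1 are means over several probe sets, and these did not change alike. H2-D1 had 9 probe sets of its own, 7 of them expressed. When tested singly over all probe sets, 1426324_at was 2.11 higher on the log2 scale at 12 weeks (adjusted p = 0.0106) and 2.43 higher at 16 weeks (adjusted p = 0.00494) than at 4 weeks. Its 4-week mice lay between 4.96 and 6.06, its 12-week mice between 7.52 and 7.97, and its 16-week mice between 6.86 and 8.68. The other expressed probe sets of H2-D1 fell into 2 groups. At 16 weeks 1425545_x_at, 1451683_x_at and 1451784_x_at were 1.00, 0.92 and 1.11 higher without passing the test, and 1425614_x_at, 1427651_x_at and 1450170_x_at, with mean values of 3.41 to 3.93, differed by -0.05, 0.01 and 0.14. These 3 dim probe sets enter the mean of H2-D1 with the same weight as the others.

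Among the 4 probe sets of H2-K1, 1427746_x_at was 1.44 higher at both 12 weeks (adjusted p = 0.0175) and 16 weeks (adjusted p = 0.0252) than at 4 weeks, and the other 3 were 0.69 to 0.84 higher at 16 weeks without passing. The probe set annotated to both H2-K1 and H2-D1 was 1.40 higher at 12 weeks (adjusted p = 0.0368). Names that end in _x_at mark probe sets whose probes can also bind other transcripts, and the classical heavy chains are alike in sequence, so how the signal divides between H2-K1 and H2-D1 is uncertain.

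H2-T23 had no probe set of its own. Both probe sets that carry its symbol are shared with the pseudogene H2-T-ps, and only 1449556_at, with a mean of 11.43, was above the median of all probe sets. It was 0.37 higher at 8 weeks, 0.48 at 12 weeks, 0.52 at 16 weeks and 0.25 at 20 weeks than at 4 weeks, and the adjusted p lay between 0.459 and 0.799. Its values were 11.83, 11.08, 11.76, 11.85 and 11.60 in the 16-week mice, against 11.25, 11.06, 11.13, 10.53 and 11.56 in the 4-week mice, so that the ages overlapped.

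**Figure D2:**
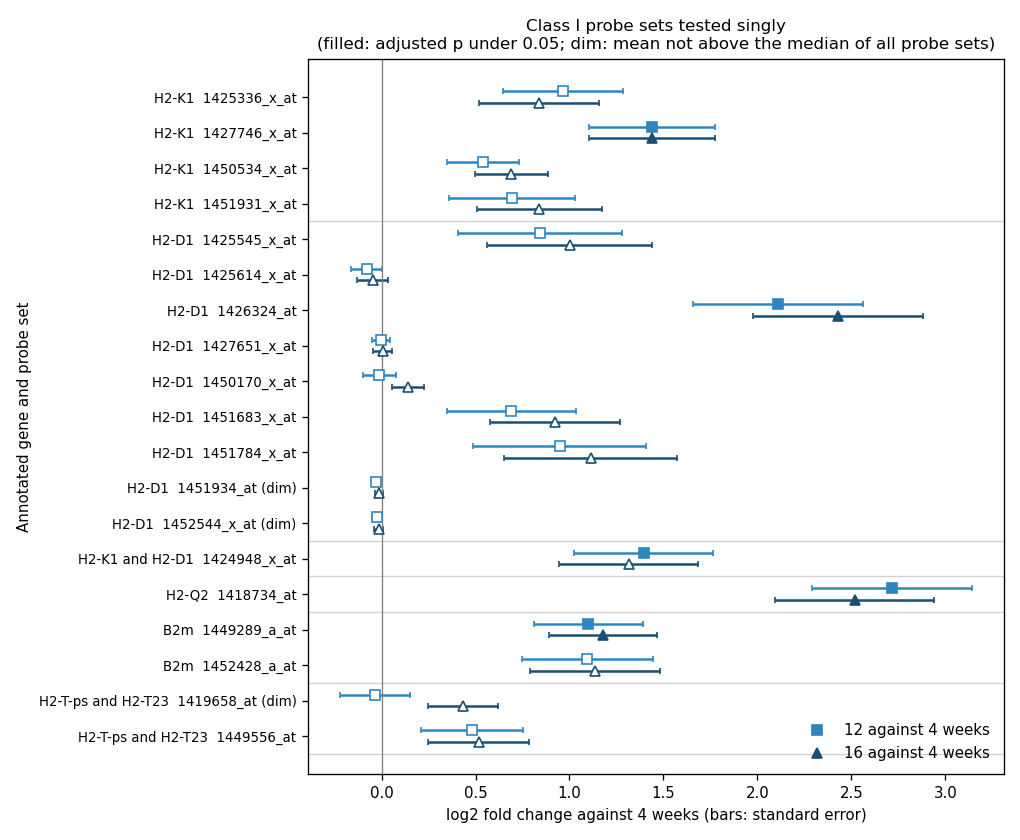
Log2 fold change with its standard error at 12 weeks (squares) and 16 weeks (triangles) against 4 weeks for each probe set annotated to H2-K1, H2-D1, both of these, H2-Q2, B2m or H2-T23. Filled symbols passed an adjusted p of 0.05 over all probe sets, of which 2.80% rose at 12 weeks and 1.02% at 16 weeks: 1 probe set each of H2-K1, H2-D1, H2-Q2 and B2m at both ages and the shared probe set of H2-K1 and H2-D1 at 12 weeks.

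The transporter genes changed less evenly. Tap1 had log2 values of 5.64, 5.38, 5.46, 5.73 and 6.25 at 4 weeks. At 8 weeks it spread over 5.36, 6.04, 5.10, 7.32 and 6.40, with mouse 4 high. At 12 weeks the values were 6.25, 6.75, 6.48, 6.21 and 6.81, and at 16 weeks 7.89, 4.57, 7.72, 7.42 and 6.02, with mice 1, 3 and 4 high and mouse 2 below every 4-week mouse. The 20-week mice lay between 5.97 and 6.68. The SD was 1.41 at 16 weeks and 0.34 at 4 weeks, and the log2 fold changes against 4 weeks, 0.35, 0.81, 1.03 and 0.54, missed the threshold at all 4 ages (adjusted p = 0.717, 0.373, 0.319 and 0.759). Tap1 was read from 1 expressed probe set of 4.

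Tap2, the partner of Tap1, gave a dim signal from 1 probe set, with age means of 3.91 at 4, 4.23 at 8, 4.53 at 12, 4.39 at 16 and 3.68 at 20 weeks. The 12-week mice had 4.14, 4.69, 4.70, 4.25 and 4.88, against 3.83, 3.52, 4.11, 3.91 and 4.15 in the 4-week mice, with 1 mouse of 12 weeks inside the 4-week range. At 12 weeks the log2 fold change was 0.63 (adjusted p = 0.263), and no age passed. Mouse 1 at 16 weeks, which had the highest Tap1 of all, also had the highest Tap2, at 5.26, while mice 3 and 4 of that age had 4.25 and 4.14. At 20 weeks mouse 3 was at 2.06, below the level that counts as expressed, and the other 4 mice were between 3.90 and 4.15.

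Tapbp, which bridges the transporter and the heavy chain, had log2 values of 9.83, 10.02, 10.05, 9.93 and 10.16 at 12 weeks and 10.10, 9.63, 10.30, 10.35 and 9.81 at 16 weeks, against 9.55, 8.87, 9.55, 8.37 and 9.54 at 4 weeks. Neither of these ages overlapped with 4 weeks. The log2 fold changes of 0.82 at 12 weeks and 0.86 at 16 weeks had adjusted p of 0.0751 and 0.0968. Those of 0.35 at 8 weeks and 0.50 at 20 weeks had 0.678 and 0.528. Without mouse 3 at 20 weeks Tapbp passed at 12 weeks (adjusted p = 0.020) and 16 weeks (adjusted p = 0.0279).

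The immunoproteasome genes had their highest means at 16 weeks, the one age at which they were called. Psmb9 had log2 values of 6.31, 4.59, 6.92, 7.27 and 5.58 at 16 weeks, against 4.19, 4.25, 4.50, 5.18 and 5.15 at 4 weeks. Mice 1, 3, 4 and 5 of 16 weeks lay above every 4-week mouse and mouse 2 did not. At 8 weeks the values were 4.52, 4.44, 4.49, 5.45 and 4.40, at 12 weeks 4.60, 5.42, 5.11, 5.15 and 5.14, and at 20 weeks 4.97, 5.76, 4.64, 6.06 and 5.92. The log2 fold change against 4 weeks was 1.48 ± 0.39 (SE, adjusted p = 0.0396) at 16 weeks, or 2.79-fold, and 0.01, 0.43 and 0.81 at 8, 12 and 20 weeks, which did not pass (adjusted p = 0.99, 0.594 and 0.405).

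Psmb8 had 6.27, 5.35, 6.60, 6.89 and 5.56 at 16 weeks, against 5.17, 5.16, 5.10, 5.19 and 5.49 at 4 weeks. Mouse 2 of 16 weeks lay within the 4-week range, and the same mice 1, 3 and 4 were the high ones. Psmb8 was 0.91 ± 0.23 (SE) higher on the log2 scale at 16 weeks (adjusted p = 0.0250), with 0.14, 0.39 and 0.57 at 8, 12 and 20 weeks (adjusted p = 0.739, 0.353 and 0.238). Of its 2 probe sets, 1422962_a_at was 1.78 higher at 16 weeks (adjusted p = 0.0234), and 1444619_x_at, with a mean of 4.02, was 0.05 higher. At 12 weeks the 5 mice lay between 5.54 and 5.69, all above the 4-week mice, and at 8 weeks mouse 4, at 6.06, stood above the other 4 mice, which had 5.11 to 5.29.

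**Figure D3:**
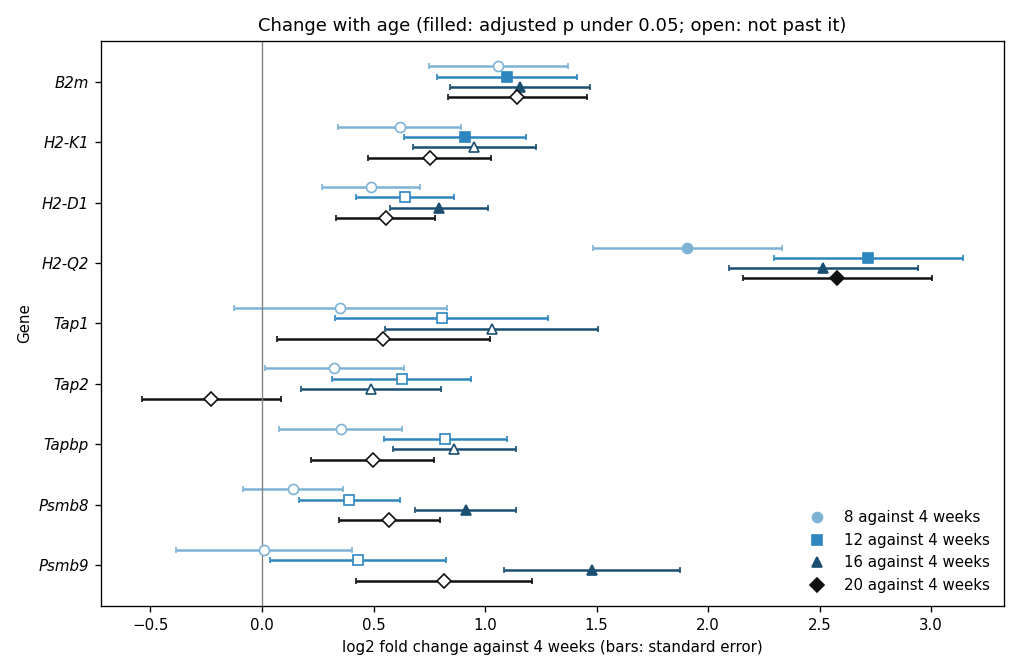
Log2 fold change of each gene at 8, 12, 16 and 20 weeks against 4 weeks, with the standard error as bars. Filled symbols passed an adjusted p of 0.05: H2-Q2 at all 4 ages, B2m at 12 and 16 weeks, H2-K1 at 12 weeks, and H2-D1, Psmb8 and Psmb9 at 16 weeks.

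Between neighbouring ages none of the 9 genes passed the test of limma, for 12 against 8, 16 against 12 and 20 against 16 weeks, where 0.00550%, 0.00550% and 0.0275% of all genes passed. At an unadjusted p under 0.05 the counts were 0, 2 and 1 of the 9, where 703, 1395 and 1313 of the 18194 genes were under it. The 2 genes were Psmb8 (log2 fold change 0.52) and Psmb9 (1.05), both higher at 16 than at 12 weeks, with adjusted p of 0.582 and 0.508. The 1 gene was Tap2, 0.72 lower at 20 than at 16 weeks (adjusted p = 0.610).

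Across the 25 mice the chains varied together, as did Tap1 with the immunoproteasome genes. B2m, H2-K1 and H2-D1 had Pearson correlations of 0.92 to 0.98 with each other. After the mean of each age was taken out these were 0.90 to 0.98. H2-Q2 had 0.83 to 0.86 with these 3 genes, and Tapbp 0.73 to 0.85. Tap1, Psmb8 and Psmb9 had 0.77 to 0.86 with each other, and 0.75 to 0.81 within ages. Between the chains and the Tap1 group the correlations were lower but not absent, the lowest being that of B2m with Psmb8, at 0.34 (Spearman's rho 0.40), 0.45 without the 2 mice farthest from the median of B2m, and 0.01 within ages. That of B2m with Tap1 was 0.45 (rho 0.47), and 0.30 within ages. H2-K1 and Psmb9 had 0.55 (rho 0.70), 0.69 without the 2 mice farthest from the median of H2-K1, and 0.45 within ages, and H2-D1 and Psmb9 had 0.59. These correlations are a description over 25 mice and 5 ages, and H2-K1 and H2-D1 share cross-binding probe sets. All genes of a mouse also share 1 array. Over the 24 mice without mouse 3 at 20 weeks B2m and Psmb8 had a correlation of 0.49 and H2-D1 and Psmb8 one of 0.68. The mean of 8 genes listed as reference genes was lowest in mouse 3 at 20 weeks (8.15), mouse 2 at 16 weeks (9.45) and mouse 4 at 4 weeks (9.54). The other mice had 9.78 to 10.51. H2-K1 and H2-D1 were also lowest of their age in these low mice, and B2m in those of 16 and 20 weeks. The part of the level of a whole array in these correlations was not tested.

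The 4 mice with the highest Tap1 were mice 1, 3 and 4 at 16 weeks and mouse 4 at 8 weeks. Mice 1, 3 and 4 at 16 weeks also had the highest Psmb8 and Psmb9 of the 25 mice, whereas the Psmb9 of mouse 4 at 8 weeks, 5.45, lay below those of mice 2, 4 and 5 at 20 weeks and mouse 5 at 16 weeks. Of these 4 mice, 3 had high levels of leukocyte markers. The mean log2 value of 8 pan-leukocyte markers was 8.04 and 8.00 in mice 3 and 4 at 16 weeks, and 5.17 to 5.84 in the other 3 mice of that age. That of 10 B and plasma cell markers was 6.85 and 6.71 in the same mice and 3.50 to 3.64 in the others, and that of 6 lymph node markers was 5.97 and 5.73 against 3.06 to 3.60. Mouse 4 at 8 weeks had 6.70, 4.66 and 4.58 for these lists, where the other 8-week mice had at most 5.52, 3.52 and 3.16. Mouse 1 at 16 weeks had low values of all 3 lists, at 5.84, 3.64 and 3.10, beside a Tap1 of 7.89 and a Psmb9 of 6.31. Mouse 3 at 20 weeks had high values of the 3 lists, at 6.83, 5.45 and 5.20, beside the lowest Tap1 (5.97) and Psmb9 (4.64) of its age and a Psmb8 of 6.10, the highest of its age. Mice 4 and 5 at 4 weeks had 5.14 and 4.79 for the lymph node list and Psmb9 values of 5.18 and 5.15. The other 4-week mice had Psmb9 values of 4.19 to 4.50. Mouse 3 of that age had 4.39 for this list and a Psmb9 of 4.50. Psmb8 and Tap1 were 5.19 and 5.73 in mouse 4 and 5.49 and 6.25 in mouse 5. In mice 1, 2 and 3 of that age they were 5.10 to 5.17 and 5.38 to 5.64.

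Compared between ages, few genes of these lists were called. Of the B and plasma cell markers 0 of 10, of the T cell markers 0 of 10 and of the lymph node markers 0 of 6 passed in limma at any of the 4 ages, with 2, 2 and 1 of them under an unadjusted p of 0.05 at 16 weeks. Of all 18194 genes, 2624 were under that p at 16 weeks. The counts of markers that passed were the same without mouse 3 at 20 weeks but for 1 lymph node marker, lower at 12 weeks. Of the pan-leukocyte markers 1 of 8 rose, Cytip, at 8, 12 and 16 weeks. The median log2 fold change of these 8 markers was below that of no change in the younger groups, with -0.42 for the 8-week and -0.34 for the 12-week mice. For the 16-week mice it was 0.74, and for the 20-week mice 0.55. The mean of the T cell list ranged over the mice from 2.82 to 3.90 at 16 weeks and from 2.82 to 3.35 at 4 weeks. Of the 10 markers 2, Cd4 and Lat, counted as expressed. The T cell receptor chain Cd3e was below that level, with means of 3.20 at 16 weeks and 3.33 at 4 weeks, while Cd3d, another chain, had 3.82 and 2.79 (adjusted p = 0.636) and Cd5 had 2.84 and 2.17 (adjusted p = 0.186). Cd8a, of the T cells that read class I, had 3.63 and 3.46. Ptprc (CD45), found on all leukocytes, differed by 0.84 at 16 weeks (adjusted p = 0.897), and its SD at that age was 2.54. Without mice 3 and 4 at 16 weeks, a setting chosen after seeing the data, 1 of the 9 genes was called at each age, H2-Q2. The log2 fold change at 16 weeks was then 0.84 for Psmb9 (adjusted p = 0.438), 0.51 for Psmb8 (adjusted p = 0.314), 1.03 for B2m (adjusted p = 0.254) and 2.39 for H2-Q2 (adjusted p = 0.0198). That fit held 3 mice of 16 weeks. B2m and H2-K1 also lost their calls at 12 weeks in it, with adjusted p of 0.0514 and 0.0674. Their log2 fold changes at 12 weeks, 1.10 and 0.91, were the same as in the fit of all arrays. The share of all genes called in the fit without these mice is not given here. Its counts therefore cannot be set against all genes. In bulk tissue, fewer cells of a type and less RNA per cell cannot be told apart, nor can more cells and more RNA per cell.

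**Figure D4:**
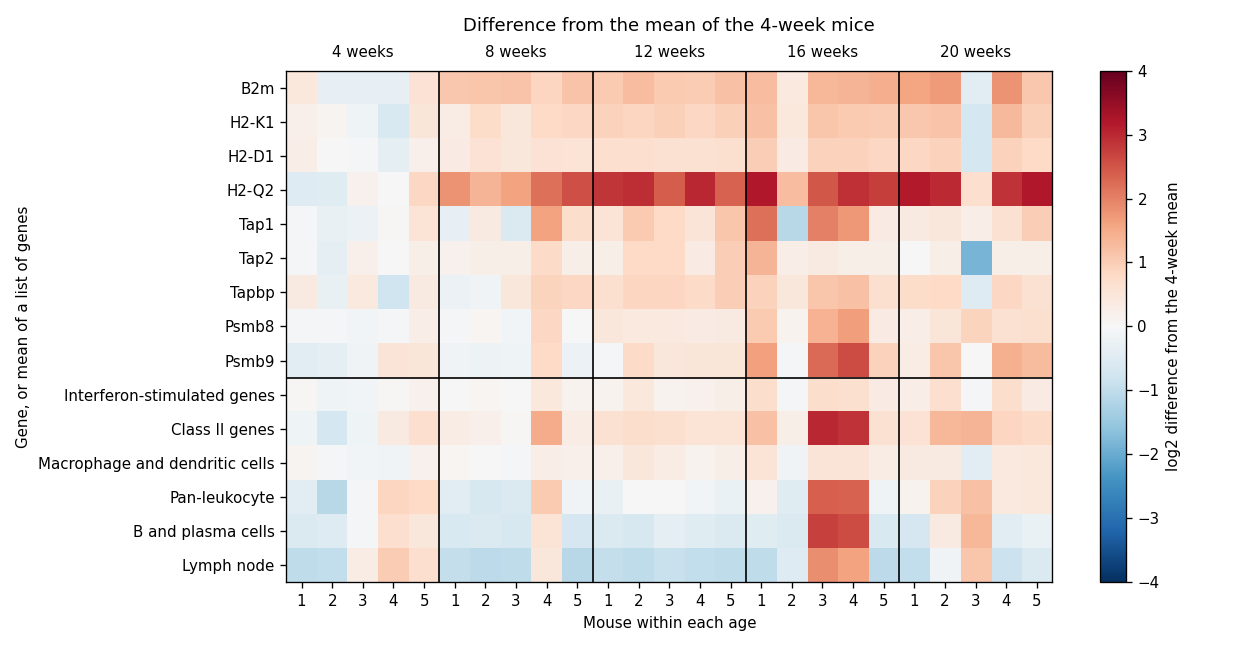
Log2 difference of each mouse from the mean of the 4-week mice, for the 9 genes above the line and for the mean of 6 gene lists below it, with the 5 mice of each age side by side. Mice 3 and 4 at 16 weeks are high in Tap1, Psmb8, Psmb9 and in the class II, leukocyte, B cell and lymph node lists. Mouse 1 at 16 weeks is high in Tap1, Tap2 and Psmb9 without a high B cell or lymph node list. H2-Q2 lies above all 4-week mice in every mouse from 8 weeks on except mouse 3 at 20 weeks, which is within the 4-week range, and is less high in mouse 2 at 16 weeks.

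Other genes of the loading machinery were called at 12 and 16 weeks. Of 19 other genes for peptide loading and trimming 0 rose at 8 weeks, 2 at 12 weeks, 2 at 16 weeks and none at 20 weeks, and there was no decrease. At an unadjusted p under 0.05 there were 3, 3, 3 and 5 of the 19. Of all 18194 genes, 2540, 3773, 2624 and 2259 were under it at 8, 12, 16 and 20 weeks. With mouse 3 at 20 weeks left out, 0, 3, 2 and 4 of the 19 rose for the 4 ages from 8 weeks on, in order. Psme1, a subunit of the PA28 activator of the proteasome, was 1.06 ± 0.25 (SE) higher at 12 weeks (adjusted p = 0.0135) and 1.17 higher at 16 weeks (adjusted p = 0.0111). Pomp, a chaperone of proteasome assembly, was 0.88 higher at 12 weeks (adjusted p = 0.0382). Psmb10, the third catalytic subunit of the immunoproteasome, was 0.99 higher at 16 weeks (adjusted p = 0.0466), with an SD of 0.84 at that age and 0.14 at 4 weeks. The medians of this list, 0.25, 0.13, -0.03 and 0.12, lay nearer to those of all genes than the medians of the 9 genes did.

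The catalytic subunits of the standard proteasome that Psmb8, Psmb9 and Psmb10 replace were not called at any age over all 25 arrays. At 16 weeks Psmb5 differed by 0.14, Psmb6 by 0.32 and Psmb7 by -0.01 on the log2 scale (adjusted p = 0.926, 0.678 and 0.995). Of 31 standard subunits 1 passed, Psmc3, an ATPase of the regulatory particle, 1.02 higher at 12 weeks (adjusted p = 0.0205). Leaving out mouse 3 at 20 weeks, more of the 31 rose: 3, 13, 2 and 7 for the 4 ages in order.

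Among 22 regulators of class I transcription 1 rose, Irf1, which is induced by interferon, by 0.79 at 16 weeks (adjusted p = 0.04998). Nlrc5, the transactivator of class I genes, was 0.89 higher at 16 weeks and missed the threshold (adjusted p = 0.0811). The counts without mouse 3 at 20 weeks were 1, 1, 2 and 2 of the 22. Of 34 interferon-stimulated genes 2 rose at 16 weeks, the chemokine Cxcl9 (1.61, adjusted p = 0.0190) and the GTPase Igtp (0.93, adjusted p = 0.0401), and 2 at 20 weeks, Ifi27l2a (1.22, adjusted p = 0.0296) and the kinase Eif2ak2 (0.98, adjusted p = 0.0228). Cxcl9 and Igtp are named here after their values were seen. At 8 and 12 weeks, 2 and 5 of the 34 had an unadjusted p under 0.05. Of all 18194 genes, 2540 and 3773 were under it at these ages. At both ages, at which H2-Q2 rose, limma called none of the 34. That rests on 1 array: without mouse 3 at 20 weeks 1, 5, 3 and 7 of the 34 rose for the 4 ages in order, and 1 fell at every age but the oldest. The mean of the interferon list was 6.05, 6.04 and 5.98 in mice 1, 3 and 4 at 16 weeks, the mice high in Tap1 and Psmb9, 5.26 and 5.65 in the other mice of that age, and 5.16 to 5.51 at 4 weeks.

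Class II genes, which show peptides to CD4 T cells and are loaded by other proteins, rose at some of the same ages: 0 of 8 at 8 weeks, 2 at 12 weeks, 5 at 16 weeks and 2 at 20 weeks. They were 0, 4, 5 and 3 without mouse 3 at 20 weeks. H2-Eb1 was 2.26 higher at 16 weeks (adjusted p = 0.00102) and H2-Ab1 2.35 (adjusted p = 0.0043), and the 2 highest mice of 16 weeks for this list, at 8.57 and 8.45, were again mice 3 and 4. Among 13 genes of the CD8 T and NK cells that read class I, 1 passed at 1 age, Gzma, the protease granzyme A, 1.13 higher at 20 weeks (adjusted p = 0.0139).

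Over the 25 mice, the genes whose levels went most closely with the mean of the 9 standardized genes were the class II chain H2-Ab1 (Pearson's r 0.93), the cysteine protease inhibitor Cst3 (0.93), the lysosomal enzyme Hexa (0.93), the complement gene C1qb of macrophages (0.92), the proteasome activator Psme1 (0.92) and Atp6v1g1, a subunit of the proton pump of lysosomes (0.90). Leaving out mouse 3 at 20 weeks, the values were 0.87 to 0.95. The macrophage and dendritic cell list, to which C1qb belongs, had 1 of 15 genes higher at 16 weeks and 0 at the other ages, and Csf1r, the receptor that macrophages need to survive, was 0.48 higher at 12 weeks (adjusted p = 0.0553) and 0.52 at 16 weeks (adjusted p = 0.0605). Without mouse 3 at 20 weeks 3 of the 15 rose at 12, 3 at 16 and 2 at 20 weeks. The part of these cells in the class I levels was not tested.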

How the data were processed

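The authors deposited log2 values of 45101 probe sets on 25 arrays. The study's methods name GCRMA, the submitters' processing notes RMA; for either, the version is not given in the sources used here. These log2 values were used as deposited. Both procedures usually set arrays to a common distribution, which can hide a shift of all genes, but the upper quartiles of these arrays ranged from 5.19 to 5.98. Probe sets with 1 gene symbol (34958 of 35890 annotated) were used, 932 with several symbols and 9211 not listed were not. A gene's value is the mean of its probe sets above 3.27, or of all where none is above.

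One linear model of age without covariates, fitted with limma 3.58.1 (R 4.3.3), took in all 25 arrays. Tests were two-sided, with Benjamini-Hochberg adjustment over 18194 genes per contrast and a threshold of 0.05. B-statistics came from orthogonal polynomials of age. Arrays give no depth: signal above background and the number of mice (5 per age) limit precision. The fit was tested on simulated data. Local alignments used Biopython 1.88, tables Python 3.11.15, numpy 2.4.6 and pandas 2.3.3, figures matplotlib 3.10.9. For H2-K1, with 2 starts listed, the one farther upstream was used.

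The genes and lists were chosen with earlier results of these data known. Genes named from a list are up to 4 with the smallest adjusted p at 12 weeks and 2 at 20 weeks against 4 weeks, plus set markers, and 6 genes of most similar pattern. Same-numbered mice of different ages were not paired. Alternatives were other probe set summaries, quantile normalization, expressed genes only, array weights, a trend and robust prior, a replicate block, 2 ages at a time, single probe sets, and each array left out.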

Additional observations from a re-analysis of the deposited data

Results flagged for a closer look

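In 45 groups of 5 mice, 14 single values stood apart from the other 4 mice of their age by Dixon's criterion, with a gap to the nearest mouse of over 0.710 of the whole range. Chance alone marks about 1 group in 20. Mouse 3 at 20 weeks was low for H2-K1 (9.24, others 10.89 to 11.25), H2-D1 (6.30, others 7.77 to 7.91), H2-Q2 (6.02, others 8.24 to 8.55), Tap2 (2.06, others 3.90 to 4.15) and Tapbp (8.66, others 9.79 to 10.02). Mouse 2 at 16 weeks was low for B2m (11.91, others 12.76 to 12.95), H2-K1 (10.36, others 10.96 to 11.13) and H2-D1 (7.30, others 7.83 to 7.97). These are arrays of low correlation with their age. Mouse 4 at 8 weeks, which had high leukocyte markers, was high for Tap2 (4.66, others 4.08 to 4.14), Psmb8 (6.06, others 5.11 to 5.29) and Psmb9 (5.45, others 4.40 to 4.52), and low for B2m (12.36, others 12.58 to 12.66). Mouse 1 at 16 weeks was high for Tap2 (5.26, others 4.14 to 4.25), and mouse 5 at 4 weeks for Psmb8 (5.49, others 5.10 to 5.19). The part of array quality or of leukocytes in these values was not tested.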

How the results depend on the processing

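No change of a gene that had passed the test turned its direction under any setting. H2-Q2 was called at 8, 12 and 16 weeks in all 11 settings and at 20 weeks in 10, all but the fit of only the 2 ages compared. With each of the 25 arrays left out in turn, it was called 23 times at 8 weeks and 25 times at each other age. The counts of the other genes depended on single arrays: leaving out 1 array gave 0 to 4 genes at 8 weeks, 1 to 6 at 12 weeks, 1 to 7 at 16 weeks, 1 to 4 at 20 weeks, and 1 to 6 past the F-test. The highest counts came without mouse 3 at 20 weeks, and at 16 weeks also without mouse 2 of that age. Tap1 was called in 2 of the 11 settings at 12 weeks and in 2 of the 11 at 16 weeks. With each array left out in turn, Tap1 was called in 1 of the 25 fits at 16 weeks and in 0 at 12 weeks. The count at 16 weeks was 1 without mouse 1, 3 or 4 of that age, or without mouse 2 or 3 at 4 weeks. That at 12 weeks was 1 without any 1 of the 12-week mice, or without mouse 2, 3 or 4 at 4 weeks, and that at 8 weeks was 0 without mouse 2 at 4 weeks or mouse 5 at 8 weeks.

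Array weights raised the counts to 4, 7, 8 and 6 at 8, 12, 16 and 20 weeks, and to 9 for the F-test. The share of all genes called also moves with the setting. Without mouse 3 at 20 weeks 13.3% of all genes rose at 12 weeks, against 5.66% with it. For the other settings of this section that share is not given here, so their counts cannot be set against all genes. Leaving out the 3 arrays of lowest correlation, chosen after seeing the data, gave 4, 6, 8 and 5, and 8 for the F-test. Quantile normalization gave 2 at 8 weeks, 3 at 20 weeks and 3 for the F-test, averaging all probe sets 2 at 20 weeks, and using expressed genes only 2 at 20 weeks and 4 for the F-test. Fits of only the 2 ages compared gave 2, 8, 1 and 0. Probe sets tested singly, where a gene counted if more of its probe sets passed than did not, gave 1 at 12 weeks and 1 at 16 weeks. A covariate holding each array's upper quartile, added later, gave 1 at 12 weeks, 4 at 20 weeks and 6 for the F-test. Without mice 3 and 4 at 16 weeks the counts were 1 at 12 weeks and 1 at 16 weeks. Fewer arrays or genes were in some of these fits, and otherwise the cause was not tested. The replicate block gave 3 at 16 weeks, but same-numbered mice did not deviate together (mean correlation -0.016 over 50 pairs, lowest -0.582), so the numbers pair nothing.

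Dim probe sets limit Tap2 and parts of H2-D1, and cross-binding ones the division between heavy chains.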

Other observations

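The other class I and class I-like heavy chains that could be measured did not move as a group with H2-Q2, H2-K1 and H2-D1. Of 18 listed, 10 were measured, and 7 of these were expressed. H2-Q10, the sole H2-Q gene among the 10, was not expressed, so the close copies of H2-Q2 were not read here. Limma called 0 at 8 and 12 weeks, 1 at 16 weeks and 0 at 20 weeks (1, 2, 4 and 3 at an unadjusted p under 0.05). Of all 18194 genes, 2540, 3773, 2624 and 2259 were under that p at these ages. The medians of the log2 fold changes of the 10 lay between -0.05 and 0.06. Without mouse 3 at 20 weeks 0, 1, 2 and 1 of the 10 rose, and 1 fell at 20 weeks. The 1 gene was H2-M3, which presents formylated peptides, 1.12 higher at 16 weeks (adjusted p = 0.0284). Mr1, which presents vitamin metabolites, was 0.45 higher at 20 weeks (adjusted p = 0.0622), and Fcgrt, the neonatal Fc receptor that also pairs with B2m, was 0.80 higher at 12 weeks (adjusted p = 0.223). Hfe, of iron uptake, differed by -0.56 at 16 weeks (adjusted p = 0.0827). The heavy chain gene H2-Bl differed by -0.24 at 12 weeks (adjusted p = 0.128) and -0.22 at 20 weeks (adjusted p = 0.308).

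Several markers of fibroblasts and endothelium were lower with age. The fibroblast list had 3 of 7 genes lower at 8 weeks, 4 at 12 weeks, 4 at 16 weeks and 3 at 20 weeks, among them the collagen gene Col1a1, and the endothelial list 2 of 8 lower at 12, 16 and 20 weeks, among them Kdr, a receptor for vascular growth factor. The fibroblast counts without mouse 3 at 20 weeks were 4, 4, 5 and 3 lower and the endothelial ones 0, 3, 4 and 2. Of the acinar markers limma called 0 of 9 at any of the 4 ages (0, 0, 4 and 2 at an unadjusted p under 0.05), and without mouse 3 at 20 weeks 2 of 9 were lower at 16 weeks. Of 10 duct and epithelial markers 1 was lower at 12, 16 and 20 weeks, the kallikrein Klk1 (-0.29 at 12 weeks, adjusted p = 0.00463), and 0 were higher at any age (1, 6, 2 and 2 under an unadjusted p of 0.05 in either direction). Of all 18194 genes, 2540, 3773, 2624 and 2259 were under that p at 8, 12, 16 and 20 weeks. Without mouse 3 at 20 weeks 1, 5, 2 and 1 of the 10 duct and epithelial markers were higher. The mean of this list was 11.44 to 11.56 in the 12-week mice, against 10.22 to 11.31 in the 4-week mice, and its part in the class I levels was not tested.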
